A study of Mus musculus with 9 samples.

Results

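The 10 genes described here are those of the liver X receptors (LXR) and of the cholesterol efflux, lipoprotein and oxysterol genes linked to them. They were taken by gene name from a table of 21951 genes, and all 10 were found. The receptors are Nr1h2 and Nr1h3, the exporters and exchange receptor are Abca1, Abcg1 and Scarb1, the secreted lipoprotein genes are Apoe and Lpl, and Mylip, Ch25h and Gpr183 complete the set. Of these, 9 had enough reads to be tested, and Ch25h did not. RNA was sequenced from BV2, a mouse microglial cell line made to grow without limit, with the genotype labelled WT, in 3 groups of 3 libraries. Control cells received only vehicle, named in the treatment protocol as 20% HP-β-CD, a cyclodextrin. Irradiated cells received vehicle for 30 min and then a single 10 Gy dose of X-rays. Triol-treated cells received 10 µM 5α-androst-3β, 5α, 6β-triol, a steroid made by synthesis, over 30 min and then the same dose. The titles give that compound for all 3 triol libraries, whereas the treatment labels of replicates 2 and 3 put the last hydroxyl at position 7β and 8β. The labels do not say whether the triol was given in cyclodextrin, a carrier that itself takes up cholesterol, and no group received triol without radiation. All libraries come from 1 cell line, nothing says that replicates were separate cultures, and p-values therefore reflect only library-to-library spread, possibly technical.

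LXRα, encoded by Nr1h3, and LXRβ, encoded by Nr1h2, are nuclear receptors that bind oxysterols and act as heterodimers with retinoid X receptors. In macrophages and microglia they switch on genes that move cholesterol out of the cell, with Abca1 loading lipid-poor apolipoproteins such as apolipoprotein E, and Abcg1 loading more mature lipoprotein particles. Oxysterols serve a second route as well, because the enzyme cholesterol 25-hydroxylase, encoded by Ch25h, makes 25-hydroxycholesterol, and a further product of it attracts cells that carry the receptor GPR183.

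The best known DNA element of LXR is a direct repeat of AGGTCA with 4 bases between the copies (DR4). It was searched on both strands of the 250 bases before the start of each gene in RefSeq's mouse table (GRCm38.p6), with up to 3 mismatches over its 12 fixed letters. Of the 10 genes 7 were in that table, and 1 of them, Abca1, held a match, with 3 mismatches. The same search matched 18.5% of all 32851 promoter windows, so a match of this kind is frequent. The stretch around it is shown because Abca1 is the standard LXR target, and no measurement below rests on the match. It lies at chr4:53159925-53159984 (GRCm38.p6), is printed on the strand of the gene, and the capitals mark the matched bases, 67 to 52 before the start, where the repeat reads on the other strand.

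Abca1 promoter: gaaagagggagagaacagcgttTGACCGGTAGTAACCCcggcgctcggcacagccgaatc

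A second pattern, GAAA repeated after any 2 bases, which is the core of interferon response elements, was found in 0 of the 7 and in 2.98% of all promoter windows. Both results describe letters in these windows only.

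The counts of a library summed to between 14118475 and 17705424 for controls, between 13879062 and 15192203 after radiation, and between 17230866 and 18944051 with triol. All 14 fixed markers of microglia and macrophages were detected and tested, and their summed level, in CPM (counts scaled to library size and composition), lay between 3058 and 3251 in controls, between 2314 and 2399 after radiation, and between 2355 and 2406 with triol. The lowest of these by read count are named here after their values were seen. P2ry12, a marker of resting microglia, had 6 to 14 reads per library, Tmem119 had 16 to 26 and Aif1 42 to 72. The summed level of 8 neuron markers was 0.130 to 0.859 CPM in controls, 1.21 to 2.19 after radiation and 2.62 to 3.26 with triol. The groups did not overlap. Tubb3, the 1 of them tested, had means of 0.0863, 1.70 and 1.86 CPM and made up nearly all of the sum after radiation. None of the others had more than 10 reads in any library. Of these, only Map2 was higher after radiation than in controls by group mean. The 10 astrocyte markers summed to 148 to 152, 103 to 113 and 101 to 108 CPM in the same order of groups. Nearly all of that was Aldoc (means 149, 106 and 102 CPM), whereas Slc1a2, the other one tested, had 0.499, 1.54 and 1.18 CPM. The 6 endothelial markers summed to 317 to 342, 240 to 248 and 254 to 264 CPM. Nearly all of this was Flt1 (means 330, 243 and 257 CPM), whereas Pecam1, the other one tested, had 0.159, 1.10 and 1.13 CPM. The 8 oligodendrocyte markers summed to 5.70 to 6.19, 5.16 to 7.11 and 5.72 to 8.09 CPM. Aqp4 and Sox9 of the astrocyte markers had 0 reads in all libraries, as did Olig1 and Olig2 of the oligodendrocyte lineage and Cldn5 of endothelium. The other markers of these lists had reads in at least 1 library. Gfap of astrocytes had 1 to 12 per library (means 0.0889, 0.484 and 0.424 CPM), and Mbp of oligodendrocytes 48 to 99. Tek and Cdh5 of endothelium had 0 CPM in controls and means of 0.201 and 0.160 CPM after radiation. In bulk RNA, fewer cells with a transcript and less of it per cell cannot be told apart.

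Per kilobase of exon, Apoe was the most abundant of the 10 transcripts. Its level in control libraries was 769 ± 24.4 RPKM (CPM per kilobase, mean ± SD, n = 3), above 99.8% of tested genes. Lpl followed with 233 ± 1.81 RPKM. The exporters were well below, with 30.9 ± 2.10 RPKM for Abcg1, 19.7 ± 0.496 for Scarb1 and 18.5 ± 0.631 for Abca1. Mylip stood at 12.2 ± 0.547 RPKM. Gpr183 with 9.82 ± 0.486 and Nr1h2 with 9.50 ± 0.521 RPKM overlapped across control libraries and were the one pair of neighbours in this order that did. Nr1h3 was lowest of the tested genes, at 3.07 ± 0.356 RPKM. After irradiation Abca1 stood above Scarb1 and Nr1h2 above Gpr183, in the irradiated and in the triol-treated libraries alike, and the rest of the order was the same. The order depends on the length used, and in CPM, without length, control Lpl was above Apoe (means 2436 and 1644). With the longest transcript in place of all exons, control Scarb1 (54.1 RPKM) exceeded Abcg1 (38.7), and Nr1h2 (15.9) exceeded Mylip (12.9). Apoe stayed first in controls with that length, at 1168 RPKM against 592 for Lpl. Neither change of order after irradiation was seen with that length. Scarb1 stayed above Abca1 in irradiated (45.0 against 19.5 RPKM) and triol-treated libraries (46.7 against 19.1), by group means. Nr1h2 was above Gpr183 (10.4) already in controls.

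**Figure D1:**
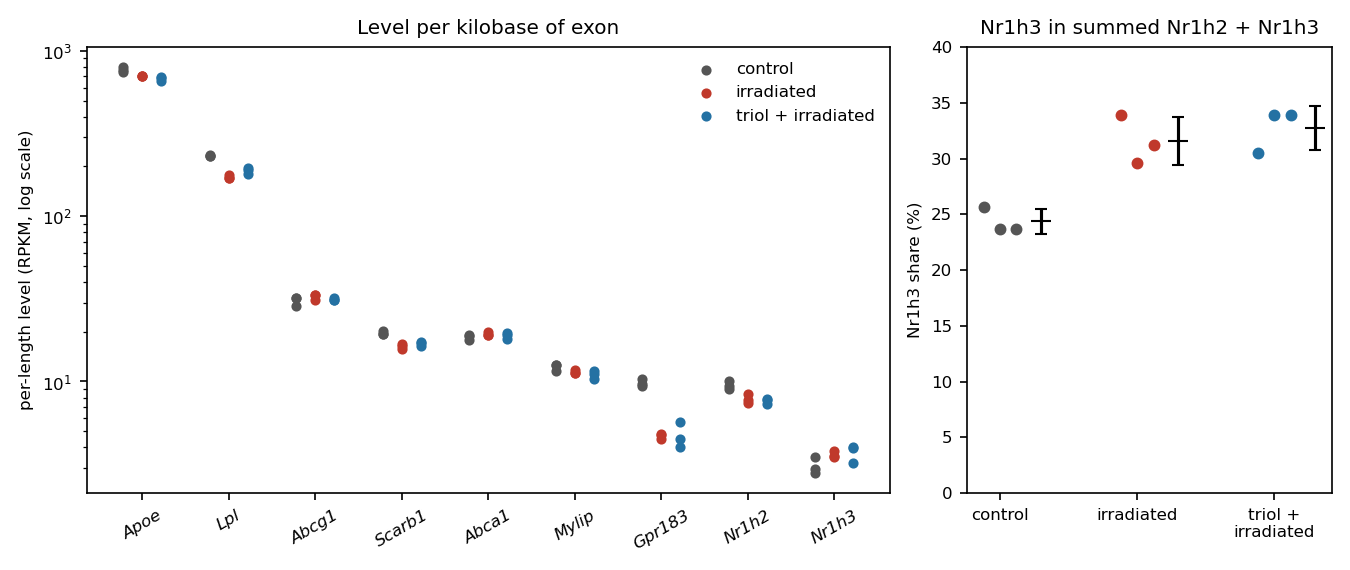
Left, level per kilobase of exon (RPKM, log axis) of the 9 tested genes, 1 point per library, 3 libraries per group, ordered by the control level. Right, share of Nr1h3 in the summed RPKM of Nr1h2 and Nr1h3 in percent, with mean and SD beside the points: the control libraries lie between 23.7% and 25.7%, all below those of both irradiated groups.

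Radiation lowered 5 of the 9 tested genes and raised 0 of them. The 5 were Gpr183, Lpl, Nr1h2, Scarb1 and Apoe, while the 4 others, Abca1, Abcg1, Mylip and Nr1h3, did not pass. Across all 11295 tested genes 44.3% were called in this comparison by edgeR at an adjusted p under 0.05, and 22.2% were called lower, against 55.6% of these 9. For 6 of the 9 genes, the 5 and Nr1h3, every irradiated library lay on one side of every control library, beside 50.7% of all tested genes. The median log2 fold change was −0.13 over the 9 genes and 0.01 over all tested genes. None of the 5 calls was lost under any of the alternative settings or with any single library left out. The summed microglial marker level fell beside them in the same comparison, with 11 of the 14 markers called lower and 0 called higher, and Tubb3 was called higher. The part of these shifts in the falls of the 5 genes was not tested.

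**Figure D2:**
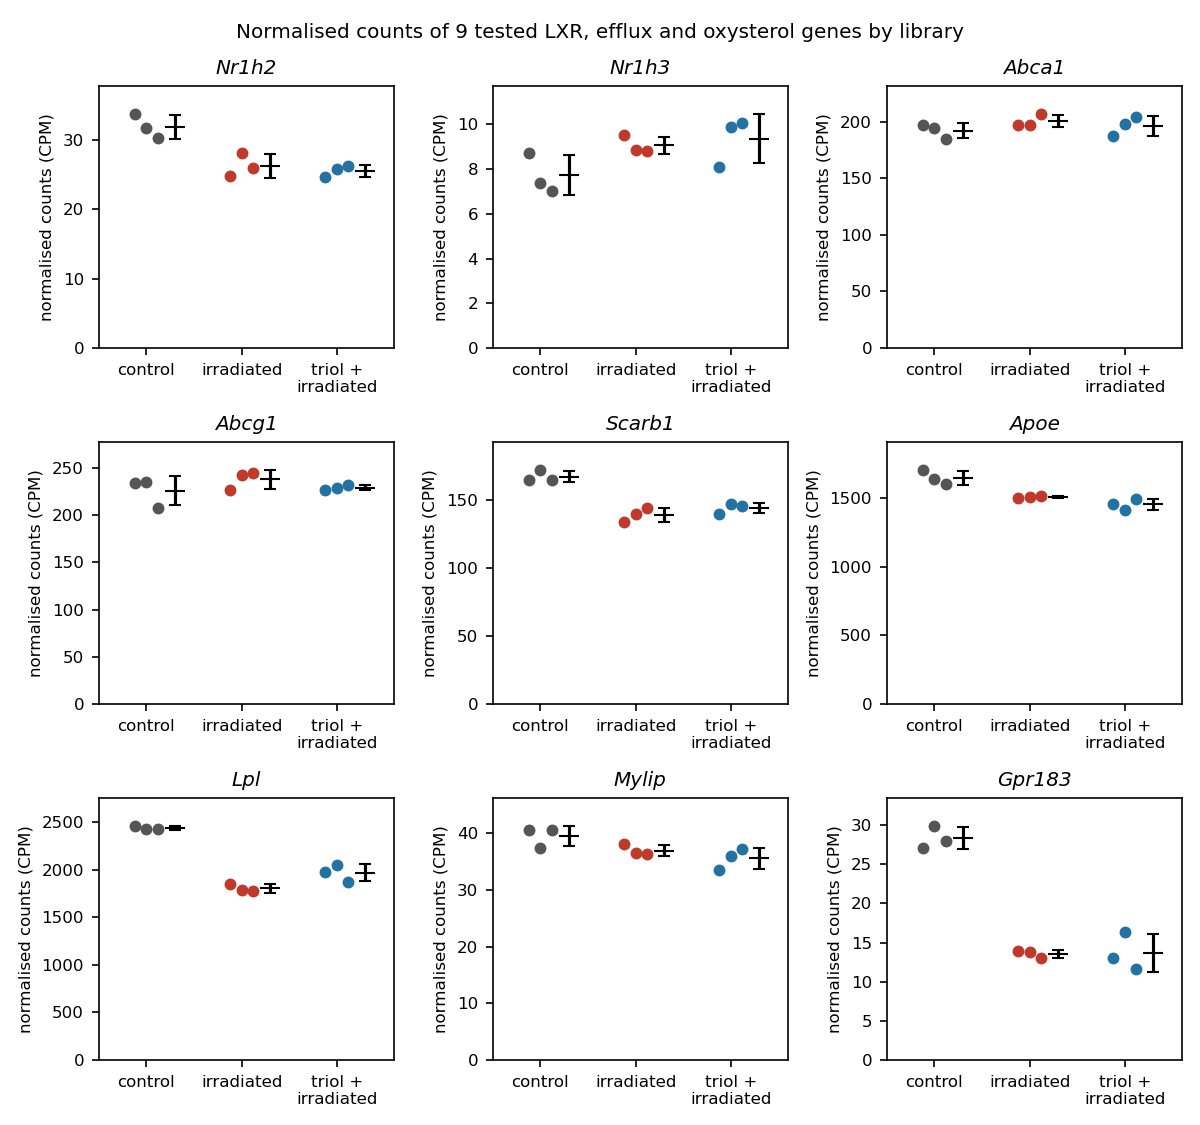
Normalised counts (CPM) of the 9 tested genes, 1 point per library with mean and SD (n = 3) beside each group, each axis starting at 0. Gpr183 falls from 27.1 to 29.9 CPM in control to 13.0 to 14.0 CPM in irradiated libraries, and Lpl has its triol-treated points between those of the other groups.

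Of the receptors, Nr1h2, on chromosome 7 from 44549616 to 44553951, was the more abundant and it fell. Its normalised counts were 33.7, 31.7 and 30.2 CPM in control libraries, 24.8, 28.1 and 25.9 in irradiated libraries, and 24.6, 25.8 and 26.3 in triol-treated libraries. Every control library was above every irradiated one, with a log2 fold change of −0.28 (SE 0.07, adjusted p = 0.0015). Nr1h3, on chromosome 2 from 91184061 to 91202834, had 8.73, 7.39 and 7.04 CPM in control libraries, 9.51, 8.85 and 8.82 in irradiated libraries, and 8.09, 9.90 and 10.1 in triol-treated libraries. Its irradiated libraries were all above the control ones, by a log2 difference of 0.24 (95% interval −0.02 to 0.49) that did not pass (adjusted p = 0.12), and it rested on 108 to 192 reads per library. Of the summed per-length level of both receptors, Nr1h3 made up 24.4 ± 1.14% in control cells, 31.6 ± 2.14% after radiation and 32.7 ± 1.96% with triol (mean ± SD, n = 3). The shares of irradiated and control libraries did not overlap, nor did those of triol-treated and control libraries. An exact two-sided permutation test gave p = 0.10 for each, the smallest value that 3 against 3 allows, and 0.15 after adjustment over the 3 comparisons.

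Of the exporters, Abca1 and Abcg1, the genes most widely used as a readout of LXR activity, did not pass the test. Abca1, on chromosome 4 from 53030787 to 53159895, had 197, 194 and 185 CPM in control libraries, 197, 197 and 207 in irradiated libraries, and 187, 198 and 204 in triol-treated libraries. The groups overlapped, and the log2 fold change with radiation was 0.06 (95% interval −0.01 to 0.14, adjusted p = 0.18). Abcg1, on chromosome 17 from 31057675 to 31117988, had 234, 235 and 208 CPM in control, 226, 243 and 244 after radiation, and 227, 228 and 232 with triol. Control replicate 3 was the low library here, and the groups overlapped (log2 0.08, 95% interval −0.00 to 0.15, adjusted p = 0.11). With upper quartile scaling both genes passed as higher after radiation, with adjusted p = 0.043 for Abca1 and 0.025 for Abcg1, and Abcg1 also passed without irradiated replicate 1 (0.038). Without control replicate 3 the values shrank to 0.03 for Abca1 (adjusted p = 0.58) and 0.02 for Abcg1 (0.77), and without irradiated replicate 3 that of Abca1 was 0.04 (0.50). Scarb1, on chromosome 5 from 125277087 to 125341094, encodes the receptor SR-BI, which exchanges cholesterol esters with high-density lipoprotein. It fell, from 165, 172 and 165 CPM in control libraries to 134, 140 and 144 in irradiated libraries (log2 −0.26, SE 0.04, adjusted p = 2.6e-07), with no overlap.

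Of the secreted proteins, Lpl, on chromosome 8 from 68880491 to 68907448, encodes lipoprotein lipase, which releases fatty acids from lipoprotein triglycerides. It had 2458, 2422 and 2428 CPM in control libraries, 1854, 1783 and 1773 in irradiated libraries, and 1980, 2048 and 1873 in triol-treated libraries. The irradiated libraries were far below the control ones, at 0.740 of their level (log2 −0.43, SE 0.03, adjusted p = 4.2e-16). Apoe, on chromosome 7 from 19696109 to 19699188, had 1701, 1633 and 1599 CPM in control libraries, 1498, 1504 and 1510 in irradiated libraries, and 1457, 1408 and 1489 in triol-treated libraries. All control libraries were above all irradiated ones, but the change was the smallest of the 5 that passed (log2 −0.13, SE 0.03, adjusted p = 2.7e-04). Mylip, on chromosome 13 from 45389742 to 45412022, encodes IDOL, a ubiquitin ligase induced by LXR that limits lipoprotein uptake. It had 40.5, 37.4 and 40.5 CPM in control and 38.1, 36.5 and 36.3 in irradiated libraries, which overlapped (log2 −0.09, 95% interval −0.22 to 0.04, adjusted p = 0.24).

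Of the oxysterol signalling genes, Gpr183, on chromosome 14 from 121952551 to 121965195, showed the largest change of the set. It encodes a G protein-coupled receptor that guides immune cells along gradients of dihydroxylated cholesterol. It had 27.1, 29.9 and 28.0 CPM in control libraries, 14.0, 13.8 and 13.0 in irradiated libraries, and 13.0, 16.4 and 11.6 in triol-treated libraries. Irradiated libraries held 0.478 of the control level (log2 −1.07, SE 0.09, adjusted p = 1.2e-12), and no library of either irradiated group reached a control library. Ch25h, a gene of 1 exon on chromosome 19 from 34473778 to 34475164, had 0 reads in 8 libraries and 1 read in triol-treated replicate 3. A count of 0 allows up to 3 counts, or 0.169 to 0.216 CPM in the libraries of the control and irradiated groups. In triol-treated replicates 1 and 2 it allows 0.174 and 0.172 CPM. Differences in Ch25h below such levels were not detectable at this depth. These limits cover counting error only.

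The libraries form irradiated and unirradiated sets, so closeness of pattern across all 9 is given only as a measure of likeness. The genes most like Gpr183 by Pearson's r of log2 CPM over the 9 libraries were Cx3cr1, the receptor for fractalkine (0.99), Lsp1 (0.99) and Slc10a7 (0.99). Those most like Nr1h3 were Rnf44 (0.95), Zfand3 (0.95) and Fam71f2 (0.95).

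**Figure D3:**
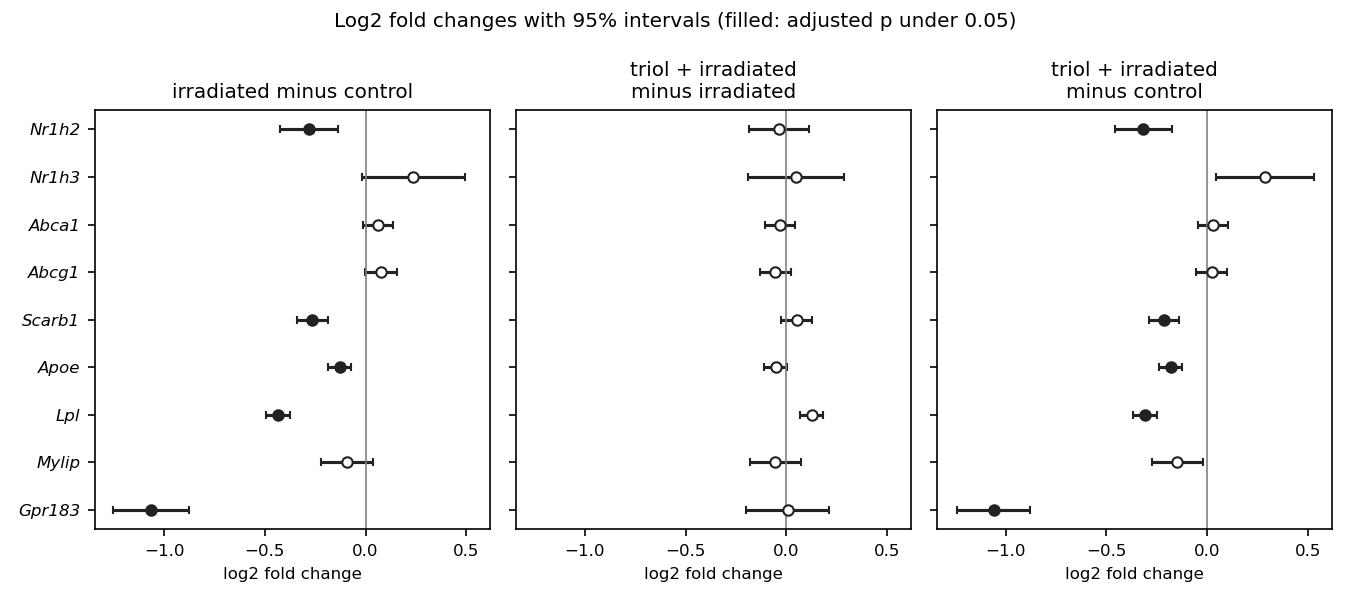
Log2 fold changes of the 9 tested genes with 95% intervals in the 3 comparisons, where filled points passed at an adjusted p under 0.05. Gpr183 lies near −1.07 and −1.06 against control and near 0.01 between the irradiated groups, where every point is open and Lpl is farthest from 0 at 0.13.

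With triol before radiation, none of the 9 genes passed against irradiated cells, where 0.106% of all tested genes, or 12, were called by edgeR. At an unadjusted p under 0.05 there was 1 of the 9, Lpl, beside 7.66% of all tested genes. The log2 difference was −0.03 (95% interval −0.10 to 0.04) for Abca1, −0.05 (−0.13 to 0.02) for Abcg1 and −0.05 (−0.18 to 0.08) for Mylip. The upper ends of these intervals were 0.04, 0.02 and 0.08 on the log2 scale. They reflect library-to-library spread only, and larger rises are not excluded. Apoe was lower in all 3 triol-treated libraries than in all 3 irradiated ones, by −0.05 (−0.11 to 0.01, adjusted p = 0.70). Gpr183 differed by 0.01 (−0.20 to 0.21), with triol-treated replicate 2 the highest and replicate 3 the lowest of the 6 libraries. The values for Nr1h2 (−0.04), Nr1h3 (0.05) and Scarb1 (0.05) had adjusted p of 0.95, 0.96 and 0.81.

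Lpl was higher in all 3 triol-treated libraries than in all 3 irradiated libraries. The mean level was 1967 ± 88.1 CPM against 1803 ± 44.6 CPM (n = 3), a log2 difference of 0.13 (95% interval 0.07 to 0.18, edgeR adjusted p = 0.078). Lpl and Apoe were the 2 of 9 genes whose groups did not overlap here, beside 13.2% of all tested genes. The value for Lpl passed with DESeq2 (adjusted p = 0.019), with limma-voom (0.029), with no filter on low counts (0.015) and without triol-treated replicate 3 (0.032). It was least certain without triol-treated replicate 2, with a log2 difference of 0.09 and adjusted p = 0.71. In the same comparison the summed level of the neuron markers given above was higher with triol, without overlap. Of these, Tubb3 did not pass (means 1.70 and 1.86 CPM), and none of the others had more than 10 reads in any library. The summed level of 25 hepatocyte genes lay between 6.38 and 8.19 CPM in controls and between 6.34 and 9.37 after radiation. With triol it lay between 18.1 and 20.3 CPM. Trf had means of 4.71, 3.89 and 4.23 CPM in control, irradiated and triol-treated libraries, and Alb 0.436, 0.852 and 3.84. Trf had 50 to 98 reads per library, Alb 2 to 82, and each of the others at most 37. None of the 25 was at 0 in all libraries, and 6 were tested. Of these 6, 3 (50%) were called higher against irradiated cells, where 0.106% of all tested genes, or 12, were called in either direction. Liver also makes Apoe and Scarb1, and the part of these marker shifts in the values of the 9 genes was not tested.

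Against control cells, triol-treated cells showed 5 called genes of 9, all lower, beside 43.3% of all tested genes called and 21.7% called lower. The genes were Gpr183 (log2 −1.06), Nr1h2 (−0.32), Lpl (−0.31), Scarb1 (−0.21) and Apoe (−0.18), the same 5 as in the comparison of irradiated with control cells, which uses the same control libraries. For Lpl the fall from control was 0.43 in irradiated and 0.31 in triol-treated cells on the log2 scale, and for Apoe the values were −0.13 and −0.18. Nr1h3 (0.29, 95% interval 0.04 to 0.53, adjusted p = 0.052) and Mylip (−0.15, −0.27 to −0.02, adjusted p = 0.054) lay just outside the threshold. Nr1h3 passed with upper quartile scaling (0.037) and without triol-treated replicate 1 (0.020) or control replicate 1 (0.028). Mylip passed with no filter on low counts (0.042) and without triol-treated replicate 3 (0.031) or control replicate 2 (0.030).

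Around these genes a wider list of 81 genes of the same pathways was examined, of which 60 were tested. With radiation 11 rose and 24 fell, or 18.3% and 40% of the 60, beside 22.1% and 22.2% of all tested genes. The median log2 fold change of the 60 was −0.06. In triol-treated against irradiated cells 0 of the 60 passed with edgeR, beside 0.106% of all tested genes. With limma-voom 0 passed, as did 0 of the 19 that DESeq2 gave an adjusted p. At an unadjusted edgeR p under 0.05 there were 9 of the 60, beside 7.66% of all tested genes. The median log2 difference of the 60 was 0.04, beside 0.0016 over all tested genes.

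**Figure D4:**
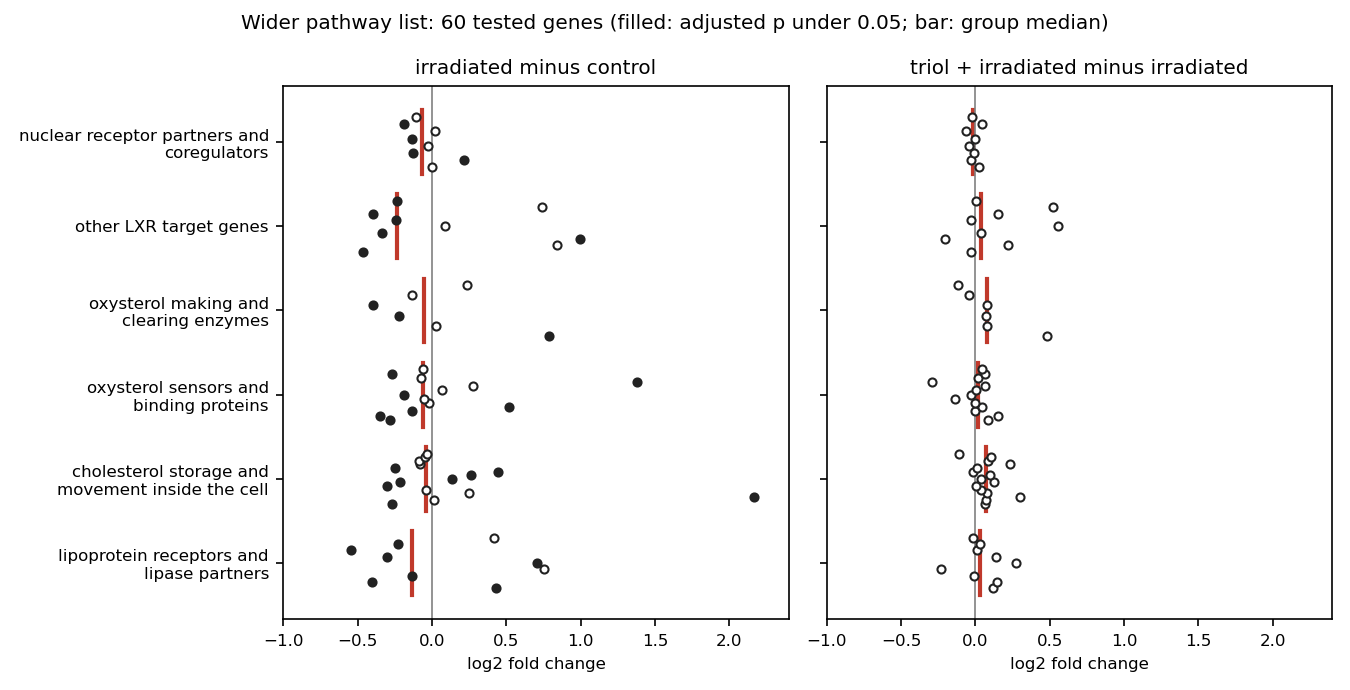
Log2 fold changes of the 60 tested genes of the wider list in 6 groups, for irradiated minus control (left) and triol-treated minus irradiated (right), where filled points passed at an adjusted p under 0.05 and red bars are group medians. On the left the group listed as other LXR target genes has its median at −0.23, and on the right every point is open.

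Among partners and coregulators of the receptors, 1 of 8 tested genes rose and 3 fell with radiation, or 12.5% and 37.5% beside 22.1% and 22.2% of all tested genes, with a median of −0.07. Rxra, the retinoid X receptor that pairs with LXR, fell by 0.19 (SE 0.04, adjusted p = 1.7e-04), with 172 ± 7.06 CPM in control and 151 ± 8.86 CPM in irradiated cells. The coactivator gene Ncoa2 rose by 0.22, and the coactivator gene Ncoa3 fell by 0.13.

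Among 9 tested genes listed as further LXR targets, 1 rose and 5 fell with radiation, with a median of −0.23. These were 11.1% and 55.6%, beside the 22.1% and 22.2% of all tested genes. Whether LXR controls each listed gene, Abca7 included, was not tested. Those that fell included Abca7, a lipid transporter of phagocytes (49.0 ± 3.79 to 35.5 ± 2.13 CPM, log2 −0.46, SE 0.07), and Mertk, a receptor for apoptotic cells (−0.40). Arl4c, a small GTPase gene, fell by 0.34. The other two that fell, named after their values were seen, were Srebf1, which encodes the lipogenic factor SREBP-1 (−0.23), and Lpcat3, a phospholipid remodelling enzyme (−0.24). Apoc1, a neighbour of Apoe in the genome, rose by 0.997 (SE 0.35, adjusted p = 0.018), from 0.708 ± 0.270 to 1.46 ± 0.312 CPM. It had 6 to 25 reads per library over all 9 libraries, and lost the call without irradiated replicate 2 (0.098) or control replicate 1 (0.10).

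Of the enzymes that make or clear oxysterols, 6 of 12 were tested, and 1 rose and 2 fell with radiation, or 16.7% and 33.3% beside 22.1% and 22.2% of all tested genes. Cyp11a1, which cleaves the cholesterol side chain at the entry to steroid synthesis, rose from 4.40 ± 0.418 CPM in control to 7.61 ± 0.905 in irradiated libraries (log2 0.78, SE 0.14, adjusted p = 2.0e-05) and stood at 10.6 ± 0.727 in triol-treated libraries. The triol difference of 0.48 (95% interval 0.24 to 0.72) did not pass (adjusted p = 0.12, and 0.055 to 0.70 over the alternatives). Ebp and Dhcr7 fell with radiation, by 0.40 and 0.22. Their proteins act in cholesterol synthesis and together form the hydrolase that turns cholesterol epoxides into cholestane triol. Cyp27a1, the sterol 27-hydroxylase gene, showed 41.1 ± 3.06, 41.8 ± 3.92 and 44.0 ± 2.63 CPM in the control, irradiated and triol-treated groups. Cyp7b1 and Hsd3b7, whose enzymes make and remove the ligand of GPR183, had at most 1 read in any library.

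Among oxysterol sensors and binding proteins, 2 of 13 tested genes rose and 5 fell with radiation, with a median of −0.06. Their shares were 15.4% and 38.5%, against 22.1% and 22.2% over all tested genes. Insig2 and Insig1, whose proteins hold back SREBP processing when sterols bind, fell by 0.35 and 0.28. Osbp2 rose by 0.52. Osbpl6 rose by 1.38, from 0.257 ± 0.173 to 0.676 ± 0.243 CPM, and had 2 to 14 reads per library over all 9 libraries. The call for Osbpl6 was lost with DESeq2 (adjusted p = 0.081), with no filter on low counts (0.061) and without irradiated replicate 1 (0.074), irradiated replicate 3 (0.19), control replicate 1 (0.13) or control replicate 2 (0.15).

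Among genes of cholesterol storage and movement within the cell, 4 of 15 rose and 4 fell with radiation, or 26.7% each way, close to the 22.1% and 22.2% of all tested genes. Nceh1, which hydrolyses stored cholesterol esters, fell by 0.30 and Gramd1a, a carrier between plasma membrane and endoplasmic reticulum, by 0.27. Scarb2, a lysosomal membrane protein gene, rose by 0.44. Gramd1c rose by 2.17 (SE 0.58), from 0.18 ± 0.12 to 0.81 ± 0.34 CPM, and had 1 to 21 reads per library over all 9 libraries. Npc1, the lysosomal cholesterol exporter gene, had 220 ± 7.29 CPM in controls, 190 ± 1.53 after radiation and 207 ± 6.00 with triol. Its log2 values were −0.21 with radiation (adjusted p = 3.3e-06) and 0.12 with triol (95% interval 0.05 to 0.19, adjusted p = 0.21).

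Among lipoprotein receptors and partners of lipases, 2 of 9 rose and 5 fell with radiation, with a median of −0.14. These were 22.2% and 55.6%, beside 22.1% and 22.2% of all tested genes. Lrp1, a large endocytic receptor that takes up apolipoprotein E, fell by 0.54 (SE 0.04, adjusted p = 7.8e-13), with 1369 ± 66.3 CPM in control and 940 ± 44.9 CPM in irradiated cells. Cd36, a scavenger receptor for oxidised lipoproteins, rose by 0.43, and Lipg, the endothelial lipase gene, rose by 0.71. Gpihbp1, the endothelial anchor of lipoprotein lipase, had 0 reads in all libraries.

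Against control cells the triol-treated cells had 11 of the 60 list genes called higher and 25 lower, or 18.3% and 41.7%, beside 21.5% and 21.7% of all tested genes. The log2 difference was 1.26 for Cyp11a1 and −0.09 for Npc1. The call for Npc1 (adjusted p = 0.032) was lost with upper quartile scaling (0.10) and without triol-treated replicate 1 (0.064), triol-treated replicate 3 (0.098), control replicate 1 (0.11) or control replicate 2 (0.070).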

How the data were processed

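RNA was measured in 9 libraries, 3 per group. The authors deposited raw whole-number counts of reads per gene. Tools named are STAR 2.7.1a, featureCounts, Subread 1.6.3, fastp 0.18.0 and FastQC, with the build GRCm38, per the submitters' processing notes. Not given in the sources used here: annotation release, strand setting, handling of multi-mapped reads. All 21951 identifiers and symbols matched GENCODE M21, the source of positions and exon lengths. Of the exonic bases of Nr1h3, 1.35% overlap a gene on the same strand, and of Ch25h 11.5% one on the other strand. Groups and replicate numbers came from the titles.

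All 9 libraries were fitted together with edgeR 4.0.16 (R 4.3.3), with filterByExpr, TMM, the robust quasi-likelihood F test, two-sided, and 6 residual degrees of freedom. Benjamini-Hochberg adjustment ran over 11295 genes, with a threshold of 0.05. Where no tool is named, adjusted p-values are edgeR's. RPKM is CPM per kilobase of merged exons. Alternatives were DESeq2 1.42.0, limma-voom (limma 3.58.1), upper quartile and RLE scaling, no filter, fitting 2 groups only, a replicate block and each library left out. Named genes were the 10 members and, from each group of the wider list, up to 4 called genes with the largest change by radiation, plus the 3 list genes with the smallest p for triol, of which some are not reported here. For the members with the largest rise and fall by radiation, the 3 genes of highest Pearson correlation were named. Genes outside this rule (Srebf1, Lpcat3, Npc1 for radiation, Cyp27a1, Cyp7b1, Hsd3b7 and Gpihbp1) were added after their values were seen. Every cell type marker named singly, other than Cx3cr1, was added in the same way. The members and lists were chosen with earlier results of these data known.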

Additional observations from a re-analysis of the deposited data

How the results depend on the processing

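Of 129 recomputed counts and shares, 112 stayed close to their reported value. Of 347 recomputed values of single members, 324 kept their sign and their call status, whatever their size, 14 gained a call and 9 changed sign. Of 412 values of named list genes 398 kept their call and 14 lost it. In triol-treated against irradiated cells, the 12 genes called in all became 19 with DESeq2, 36 with no filter on low counts, 22 with only the 2 groups fitted and 22 with the replicate block, and 6 to 9 with a library left out. The 0 called members became 1, Lpl, with DESeq2, limma-voom, no filter and the replicate block (adjusted p = 0.030), and 0 to 1 with a library left out. The Nr1h3 share was 19.6% in controls, 25.9% after radiation and 26.9% with triol when the longest transcript set the length, which shifts all groups. Signs changed only among values that were not called. For triol against irradiated cells these were Nr1h2 (−0.080 to 0.011 with a library left out, positive without irradiated replicate 2), Nr1h3 (−0.014 to 0.137, negative without triol-treated replicate 3) and Gpr183 (−0.0019 with upper quartile scaling, −0.0103 with limma-voom, −0.146 to 0.111 with a library left out, negative without triol-treated replicate 2 or irradiated replicate 3). For triol-treated against control cells they were Abca1 (−0.0053 to 0.057, negative without triol-treated replicate 3 or control replicate 3) and Abcg1 (−0.043 to 0.047, negative without control replicate 3). Except for the length, the cause was not tested. Same-numbered libraries did not deviate together (correlations −0.05 to 0.04, and 4 of 9 libraries closest to their own number), so the replicate block rests on a shared number only, and it changed no other call of a member. Upper quartile scaling moved the median of all genes with radiation from 0.01 to 0.04. DESeq2 gave an adjusted p to 5 of the 9 members in the triol comparison, and Osbpl6 and Gramd1c had no value for radiation with only 2 groups fitted. Depth limits Ch25h, and low counts limit Apoc1, Osbpl6 and Gramd1c.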
